A study of Mus musculus with 12 samples.

Results

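p53 target genes were followed across B16F10 mouse melanoma cells treated with the DNA methyltransferase inhibitor 5-aza-2'-deoxycytidine (DAC), the isothiocyanate sulforaphane (SFN), or both. The members are 40 named genes, p53 itself (Trp53) among them, taken by symbol from the 24421 genes in the count files. B16F10 is an established line of melanocyte origin from C57BL/6 mice. The 4 groups held 3 samples each and all came from this 1 line, with no transgene or deletion named in the labels. Control cells received the solvent DMSO, given as 0.025% in the labels. The study's methods give a lower DMSO percentage for control wells, matched to the 25 nM DAC dose. DAC cells received 25 nM DAC for 72 h, SFN cells received SFN for 48 h, and DAC+SFN cells received 25 nM DAC for 72 h with 5 µM SFN over the last 48 h. The study's methods give 5 µM for SFN alone, whereas the labels give 0.005 µM. Under the labels' wording, then, SFN and DAC+SFN cells did not receive equal SFN. The repeats are described as independent biological ones, and the library numbers follow the replicate number, so library batch and replicate number cannot be told apart.

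p53 is a transcription factor that is held low by the ubiquitin ligase Mdm2 and released by DNA damage and other stress. It binds a pair of short half-sites near its target genes, which halt the cell cycle, repair DNA, promote cell death, adjust metabolism and, in the case of Mdm2, shut p53 down again. Because much of this control acts on the p53 protein, the Trp53 transcript and p53 activity need not move together. DAC is built into DNA as a cytidine analogue and traps DNA methyltransferases, and SFN is a plant compound that acts on histone deacetylases and on the antioxidant response.

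Of the 40 members, 36 passed the filter on low counts, which asked for at least 1 CPM (counts scaled to a library of 1e+06) in at least 3 of the 12 libraries. Among them 35 reached 1 CPM in all 12 libraries, and Ptprv passed through 8 libraries, none of them a control. Pmaip1, which codes for the cell death protein Noxa, had 0 counts in all 12 libraries, which allows at most 3 counts in each. Fas, Perp and Gdf15 had 1 to 15, 7 to 28 and 2 to 16 counts per library, respectively, and were not tested. Library totals ran from 15880957 to 27291436 counts. The melanocyte markers Tyr, Tyrp1, Dct, Mlana, Pmel, Mitf and Sox10 lay between 301 and 13400 CPM in all libraries. Of 10 markers of blood, endothelial, epithelial and fibroblast cells, 8 had at most 2 counts in any library, Pecam1 had 1 to 11 and Pdgfra had 26 to 65. Pdgfra, the 1 tested marker of these 10, fell with SFN (-0.84 ± 0.23, adjusted p = 0.024) and with DAC+SFN (-0.73 ± 0.23, adjusted p = 0.0249), opposite in direction to the members that rose. Of the 7 melanocyte markers 0 passed with SFN or DAC, 2 were lower with DAC+SFN against control and 1 was higher with DAC+SFN against DAC. Of all genes 14.7% were lower with DAC+SFN against control and 9.55% higher against DAC. The part of either marker list in the results was not tested. In RNA from whole cultures, a change in transcript per cell and a change in which cells are present cannot be told apart.

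Promoters were searched for the p53 half-site, the p53 response element consensus of 10 bases, which reads the same on both strands. RefSeq promoter windows on GRCm38.p6, 300 bases long from 250 before to 50 after the transcription start, were at hand for 31 of the 40 members, as 43 windows. A half-site was present in 12 windows (27.9%) of 11 members, against 8.36% of all 32851 windows. No member window held 2 half-sites separated by 0 to 13 bases, the spacing of a full response element, which 0.0731% of all windows had. Of the 11 members with a half-site, 7 were higher with DAC+SFN at an adjusted p under 0.05, and of the 18 tested members with a window but no half-site, 14 were. Of all genes tested, 17% were higher with DAC+SFN. A match describes these letters only, and binding was not measured here. The 250 bases before the start are printed 5′ to 3′ on the coding strand for 7 members, to show how the half-site, in capitals, sits in genes that passed the test with DAC+SFN (Mdm2, Ccng1, Bax, Ei24, Gadd45a) and in genes that did not (Ppm1d, Trp53). Cdkn1a, which codes for the cell cycle inhibitor p21 and is no member, is shown first because 1 of its windows held 2 half-sites 12 bases apart. Its other window (chr17:29093519-29093818) held 0 half-sites.
Cdkn1a (chr17:29090729-29090978, plus strand): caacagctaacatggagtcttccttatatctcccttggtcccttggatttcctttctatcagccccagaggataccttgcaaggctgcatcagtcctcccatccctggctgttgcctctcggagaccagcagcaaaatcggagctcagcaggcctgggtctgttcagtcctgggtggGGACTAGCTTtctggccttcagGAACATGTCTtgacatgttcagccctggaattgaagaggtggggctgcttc
Mdm2 (chr10:117710759-117711008, minus strand): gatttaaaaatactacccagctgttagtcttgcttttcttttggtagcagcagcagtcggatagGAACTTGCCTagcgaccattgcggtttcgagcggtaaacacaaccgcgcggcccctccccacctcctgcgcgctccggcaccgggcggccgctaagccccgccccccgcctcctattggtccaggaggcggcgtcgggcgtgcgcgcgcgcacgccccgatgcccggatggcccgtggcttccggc
Ccng1 (chr11:40755287-40755536, minus strand): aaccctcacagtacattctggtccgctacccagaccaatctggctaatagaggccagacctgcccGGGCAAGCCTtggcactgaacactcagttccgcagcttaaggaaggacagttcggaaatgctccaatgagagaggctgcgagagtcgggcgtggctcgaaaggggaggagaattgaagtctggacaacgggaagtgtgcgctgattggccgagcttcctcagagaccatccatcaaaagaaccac
Bax (chr7:45466899-45467148, minus strand): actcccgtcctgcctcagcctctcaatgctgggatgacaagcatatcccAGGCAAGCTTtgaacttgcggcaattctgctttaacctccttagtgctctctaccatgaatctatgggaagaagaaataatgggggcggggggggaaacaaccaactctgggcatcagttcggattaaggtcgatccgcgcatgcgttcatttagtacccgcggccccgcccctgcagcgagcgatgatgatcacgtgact
Ei24 (chr9:36797335-36797584, minus strand): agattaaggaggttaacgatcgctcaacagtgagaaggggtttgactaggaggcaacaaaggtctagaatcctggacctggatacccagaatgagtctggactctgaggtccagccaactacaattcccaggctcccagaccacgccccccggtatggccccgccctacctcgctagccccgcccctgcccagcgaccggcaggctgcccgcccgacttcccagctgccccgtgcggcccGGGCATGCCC
Gadd45a (chr6:67037408-67037657, minus strand): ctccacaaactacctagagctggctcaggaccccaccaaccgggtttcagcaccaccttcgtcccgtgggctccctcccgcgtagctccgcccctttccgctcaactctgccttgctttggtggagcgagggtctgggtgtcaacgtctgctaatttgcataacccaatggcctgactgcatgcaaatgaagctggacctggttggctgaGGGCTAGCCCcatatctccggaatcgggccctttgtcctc
Ppm1d (chr11:85311004-85311253, plus strand): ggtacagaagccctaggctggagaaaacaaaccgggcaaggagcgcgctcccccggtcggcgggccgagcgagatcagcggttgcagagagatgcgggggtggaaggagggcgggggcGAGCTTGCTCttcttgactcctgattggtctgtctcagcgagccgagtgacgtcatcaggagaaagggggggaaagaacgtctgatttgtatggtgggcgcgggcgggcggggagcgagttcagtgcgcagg
Trp53 (chr11:69580109-69580358, plus strand): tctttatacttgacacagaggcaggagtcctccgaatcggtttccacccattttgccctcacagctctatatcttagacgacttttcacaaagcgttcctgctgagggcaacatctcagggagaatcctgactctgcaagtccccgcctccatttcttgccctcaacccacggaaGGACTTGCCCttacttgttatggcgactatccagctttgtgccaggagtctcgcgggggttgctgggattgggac
The first half-site base lay 73 and 51 bases before the start in Cdkn1a, 186 in Mdm2, 185 in Ccng1, 201 in Bax, 10 in Ei24, 40 in Gadd45a, 132 in Ppm1d and 75 in Trp53.

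In control cells the members spanned more than 3 orders of magnitude per length. Levels were compared as CPM per kb of merged exon (GENCODE M21 on mm10). Rps27l, a relative of the ribosomal protein gene Rps27, was highest at 327 ± 29 CPM per kb (mean ± SD, n = 3). The pore-forming cell death protein gene Bax followed at 184 ± 22.4 and cyclin G1 (Ccng1) at 149 ± 27.9, whose control samples overlapped. Trp53 stood at 83.3 ± 14, Phlda3 at 68.7 ± 14, Ei24 at 59.5 ± 2.71 and Mdm2 at 50.1 ± 8.76, and neighbours among these 4 overlapped. Rps27l and Bax did not overlap, nor did Ccng1 and Trp53. At the lower end of the tested members were Epha2 at 1.69 ± 1.18, Eda2r at 0.388 ± 0.132 and Ptprv at 0.101 ± 0.0282 CPM per kb, where counting error weighs most.

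**Figure D1:**
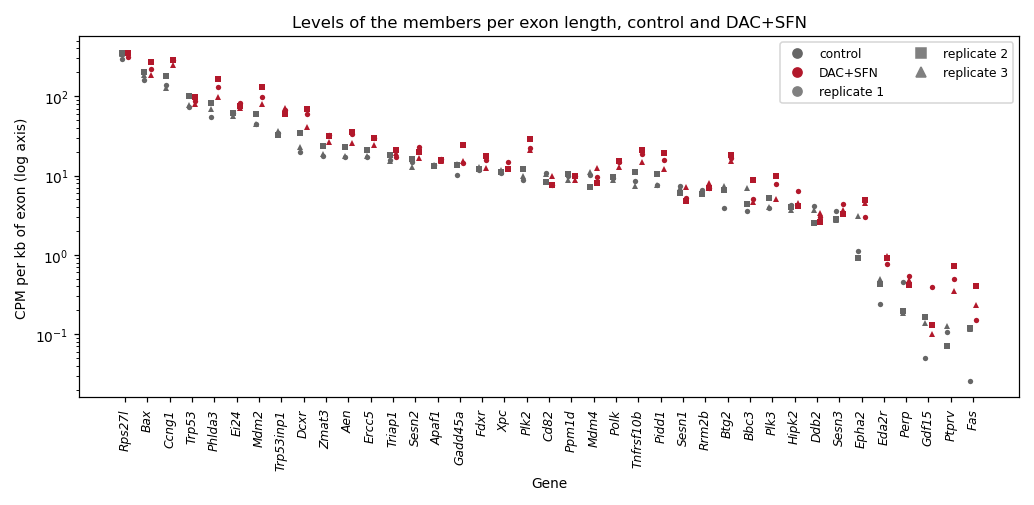
Levels of 39 members with any count, in CPM per kb of exon on a log axis, ordered by the control mean; grey points are the 3 control samples and red points the 3 DAC+SFN samples, with the shape giving the replicate number. The control mean falls from 327 CPM per kb for Rps27l to 0.0866 for Fas, and for Ptprv, Btg2 and Plk2 all red points lie above all grey points.

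SFN alone raised 17 of the 36 tested members (47.2%) and lowered 0 at an adjusted p under 0.05, by edgeR's quasi-likelihood test adjusted over 11638 genes with the replicate number as a block. Over all genes tested, 8.27% were higher and 5.65% lower. The median log2 fold change of the members was 0.28, against 0.0040 over all genes. The changes were small. Folds of the called members ran from 1.15 (Ei24) to 3.27 (Ptprv), and only Ptprv passed a fold of 2 (1.08% of all genes did so upwards). Ptprv was tested only because of its treated libraries, and of the 35 members that reached 1 CPM in every library 16 were called and 0 passed a fold of 2. The count past a fold of 2 was 0 without control replicate 2 and 3 without control replicate 3. In 17 members the 3 SFN samples lay above all 3 controls, which 10.9% of all genes did, and in 0 members below (9.93% of all genes). Without the replicate block 0 members were called, as were 0.198% of all genes. Without replicate 2 of every group 9 were called, with 3.72% of all genes.

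DAC alone raised 2 of the 36 members, Trp53inp1 and Plk2, and lowered 0, where 0.18% of all genes were higher and 0 genes were lower at the same threshold. A further 17 members had an unadjusted p under 0.05 without passing the adjusted threshold, and 10.1% of all genes had such a p. The median log2 fold change was 0.26 over the members and 0.0049 over all genes. In 5 members (Trp53inp1, Plk2, Eda2r, Sesn2 and Fdxr) all DAC samples lay above all controls, which 4.09% of all genes did, and in 0 below (4.34% of all genes). A fold above 2 was passed by 0 members (0.0344% of all genes). The count moved with single libraries and with the settings. It was 0 without control replicate 1 (0% of all genes called). It was 1 without control replicate 2 (0.0172%) or DAC replicate 2 (0.0946%) and 6 without DAC replicate 1 (0.198%). It was 10 without DAC+SFN replicate 1 (0.379%) and 13 without DAC+SFN replicate 3 (0.871%). Without the block it was 0 (0%). By the DESeq2 Wald test it was 11 (0.713%), and with no filter on low counts 13 of 39 (0.971%). With only the groups compared it was 18 of 35 (5.82%).

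DAC+SFN raised 26 of the 36 members (72.2%) against control and lowered 0, where 17% of all genes were higher and 14.7% lower. Their median log2 fold change was 0.47, against 0.0078 over all genes, and was 0.43 over the 35 tested members other than Ptprv. A fold above 2 was reached by 8 members (Ptprv, Btg2, Epha2, Plk2, Eda2r, Dcxr, Tnfrsf10b and Mdm2), as by 2.33% of all genes, and by 5 without DAC+SFN replicate 1. Of the 35 members at 1 CPM in every library, which leave out Ptprv, 25 were called and 7 passed a fold of 2. All DAC+SFN samples lay above all controls in 21 members, against 15.1% of all genes, and in 0 below, against 14.3% of all genes. Without the replicate block 17 members were called, with 10.3% of all genes. The comparisons with control share the same 3 control samples and so are not independent of each other.

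**Figure D2:**
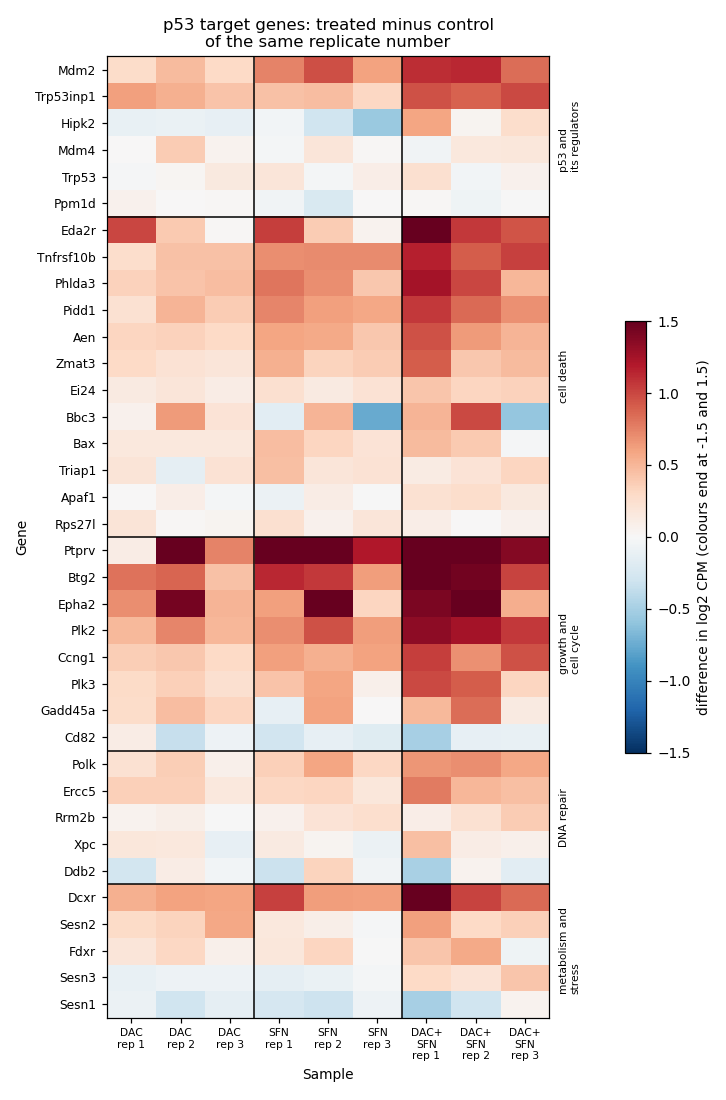
Difference in log2 CPM between each treated sample and the control of the same replicate number for the 36 tested members (rows, grouped by role) in DAC, SFN and DAC+SFN (columns); red is higher than control, blue lower, and colours end at -1.5 and 1.5. The death and growth groups are red in most columns, most deeply with DAC+SFN, and Cd82, Ddb2 and Sesn1 are pale or blue in most.

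**Figure D3:**
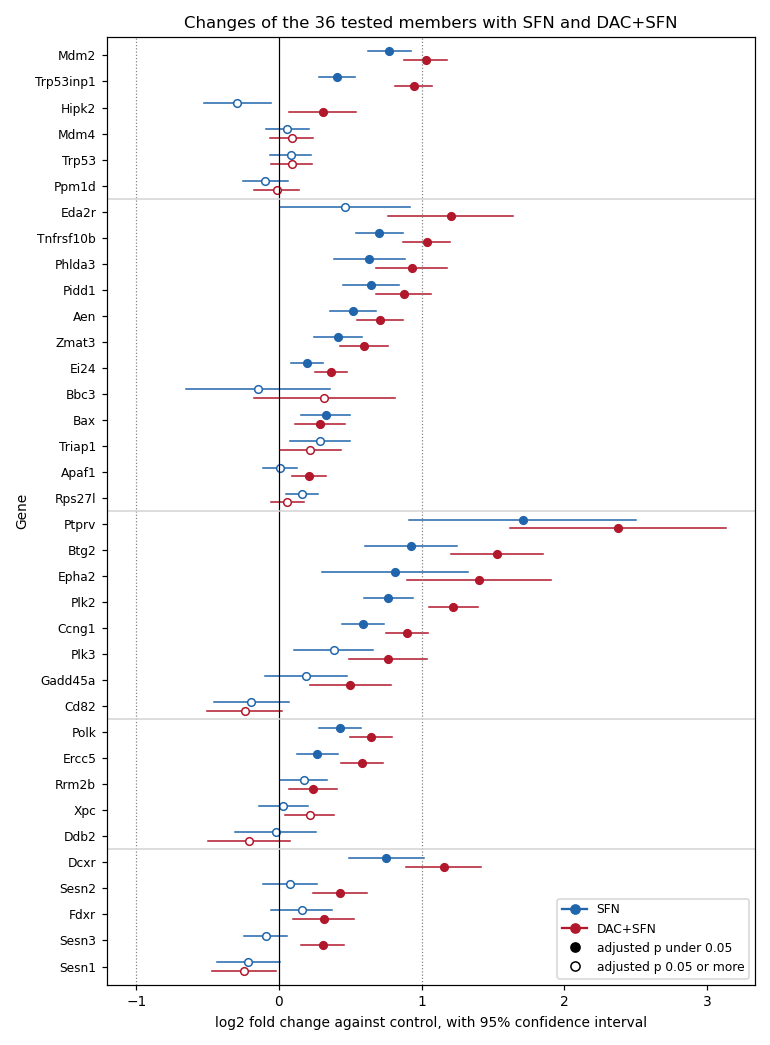
Log2 fold change against control with its 95% confidence interval for each tested member, SFN in blue and DAC+SFN in red; filled points passed an adjusted p of 0.05. Filled points number 17 for SFN and 26 for DAC+SFN, and all lie to the right of 0.

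p53 and its direct regulators split into genes that rose and genes that did not. The Trp53 transcript (chr11:69580359-69591873, plus strand) was at 138, 186 and 143 CPM in control, 136, 190.1 and 159 under DAC, 156, 183 and 153 under SFN and 163, 181 and 149 under DAC+SFN (replicates 1, 2 and 3). The groups overlapped, and replicate 2 was highest in every group. Its log2 fold change with DAC+SFN was 0.089 ± 0.068 (SE), with a 95% interval of -0.056 to 0.23 (adjusted p = 0.34), so a change of the Trp53 transcript beyond that interval was not seen.

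Mdm2 (chr10:117688875-117710758, minus strand), the ligase that degrades p53, was at 142, 189 and 142 CPM in control, 171, 264 and 174 under DAC, 238, 371 and 215 under SFN and 305, 416 and 253 under DAC+SFN. All SFN and all DAC+SFN samples lay above all controls. Mdm2 rose by 0.77 ± 0.070 on the log2 scale with SFN (adjusted p = 1.18e-05) and by 1.03 ± 0.070 with DAC+SFN (adjusted p = 5.01e-07), a fold of 2.04. With DAC its value of 0.35 ± 0.070 did not pass (adjusted p = 0.059).

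Trp53inp1 (chr4:11156431-11174379, plus strand), a stress-induced partner of p53 in transcription and autophagy, was at 184, 177 and 196 CPM in control, 283, 255 and 263 under DAC, 249.995, 244 and 242 under SFN and 357, 325 and 389 under DAC+SFN. The control samples were below every treated sample, and the DAC+SFN samples were above all others. It rose by 0.53 ± 0.060 with DAC (adjusted p = 0.00189), by 0.41 ± 0.059 with SFN (adjusted p = 0.00044) and by 0.94 ± 0.060 with DAC+SFN (adjusted p = 2.55e-07). The DAC call was lost without control replicate 1 (adjusted p up to 0.0517). Its difference by replicate number did not pass (adjusted p = 0.186).

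Of the other regulators, Hipk2 alone passed with DAC+SFN and Mdm4, Trp53 and Ppm1d did not. Hipk2, a kinase that phosphorylates p53, was at 33.3, 31.7 and 29.4 CPM in control, 32.4, 25.8 and 19.95 under SFN and 50.3, 32.5 and 35.3 under DAC+SFN. Its SFN value was -0.29 ± 0.11 (adjusted p = 0.0942) and its rise with DAC+SFN was 0.31 ± 0.11 (adjusted p = 0.0442), a call lost without control replicate 1, control replicate 2, control replicate 3, DAC replicate 2, SFN replicate 2, DAC+SFN replicate 1 or DAC+SFN replicate 3 (adjusted p up to 0.257). Mdm4, the p53 inhibitor related to Mdm2, and Ppm1d, the phosphatase Wip1 that acts on p53 and its kinases, had DAC+SFN values of 0.089 ± 0.071 and -0.015 ± 0.074 (adjusted p = 0.363 and 0.899).

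**Figure D4:**
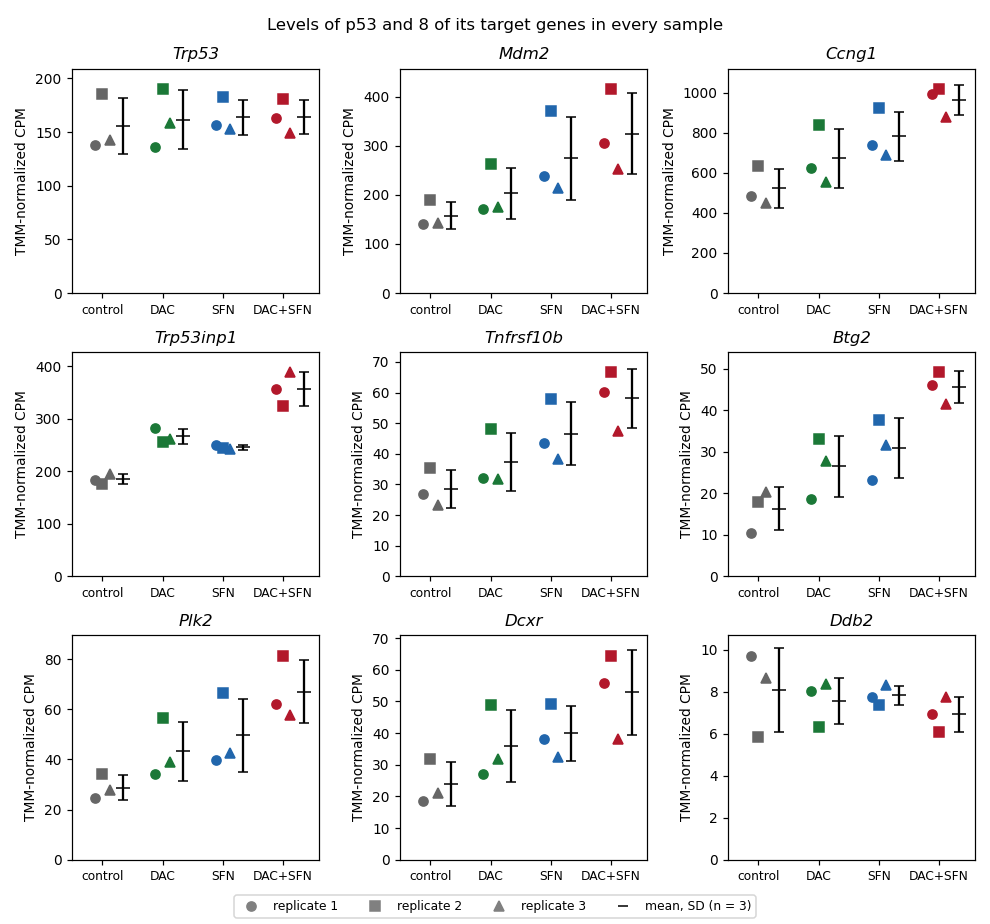
CPM scaled by the trimmed mean of M-values (TMM) for Trp53 and 8 other members in every sample, from 0; points are samples with their shape giving the replicate number, and the black bar is the mean with the SD (n = 3). Trp53 and Ddb2 overlap across the groups, while for Mdm2, Trp53inp1, Tnfrsf10b, Btg2, Plk2, Ccng1 and Dcxr all DAC+SFN samples lie above all controls.

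Of 12 tested genes of cell death, 7 rose with SFN and 9 with DAC+SFN, where 8.27% and 17% of all genes were higher, and the medians of the log2 fold changes were 0.37 and 0.48 (0.0040 and 0.0078 over all genes). Tnfrsf10b (chr14:69767472-69784411, plus strand), the mouse receptor for the death ligand TRAIL, was at 26.8, 35.5 and 23.4 CPM in control, 32.1, 48.2 and 31.8 under DAC, 43.4, 58 and 38.2 under SFN and 60.1, 66.6 and 47.5 under DAC+SFN. Every SFN and DAC+SFN sample was above every control. The rise was 0.70 ± 0.078 with SFN (adjusted p = 4.95e-05) and 1.03 ± 0.078 with DAC+SFN (adjusted p = 1.28e-06). Its difference from the control of the same number was 0.69, 0.71 and 0.71 log2 CPM with SFN in the 3 replicates.

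Eda2r (chrX:97333840-97377216, minus strand), another receptor of the TNF family, was low, with 25 to 99 counts per library. It was at 1.15, 2.07 and 2.36 CPM in control, 2.40, 2.74 and 2.40 under DAC, 2.45, 2.71 and 2.45 under SFN and 3.69, 4.41 and 4.62 under DAC+SFN. All treated samples lay above all controls, control replicate 3 by little, but only the DAC+SFN rise passed (1.20 ± 0.20, adjusted p = 0.000577), and its SFN value was 0.46 ± 0.21 (adjusted p = 0.168).

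Pidd1, Phlda3, Aen and Zmat3 rose with both SFN and DAC+SFN. Pidd1, the scaffold that activates caspase-2, was at 25.3, 35.5 and 25.2 CPM in control, 41.9, 54.7 and 37.9 under SFN and 53, 63.9 and 40.6 under DAC+SFN, and rose by 0.65 ± 0.092 and 0.87 ± 0.092 (adjusted p = 0.000353 and 1.24e-05). Phlda3, which blocks Akt at the membrane, was at 78.7, 119 and 98.4 in control, 137, 192 and 130.5 under SFN and 188, 238 and 139 under DAC+SFN, and rose by 0.63 ± 0.12 and 0.93 ± 0.12 (adjusted p = 0.00229 and 5.65e-05). For both genes every SFN and DAC+SFN sample lay above all controls. The nuclease gene Aen rose by 0.52 ± 0.075 with SFN and 0.71 ± 0.076 with DAC+SFN (adjusted p = 0.000399 and 1.41e-05). The RNA-binding protein gene Zmat3 rose by 0.42 ± 0.079 and 0.60 ± 0.079 (adjusted p = 0.00275 and 8.03e-05).

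Bax (chr7:45461697-45466898, minus strand) was at 139, 177 and 162 CPM in control, 191, 221 and 187 under SFN and 193, 232 and 161 under DAC+SFN. SFN samples were above all controls, whereas DAC+SFN replicate 3 lay at the level of its own control. Bax rose by 0.33 ± 0.081 with SFN (adjusted p = 0.0148), a call lost without control replicate 1, control replicate 2 or SFN replicate 1 (adjusted p up to 0.102), and by 0.29 ± 0.081 with DAC+SFN (adjusted p = 0.0145), lost without control replicate 1, control replicate 2, DAC+SFN replicate 1 or DAC+SFN replicate 2 (adjusted p up to 0.0969). Of the Bax exon bases, 22.1% are shared with Gm45808 on the same strand, so its count is uncertain. Ei24, a membrane protein of the endoplasmic reticulum, rose by 0.20 ± 0.052 with SFN (adjusted p = 0.0215), lost without control replicate 1, control replicate 2, control replicate 3, SFN replicate 1 or SFN replicate 3 (adjusted p up to 0.114), and by 0.36 ± 0.052 with DAC+SFN (adjusted p = 0.000153).

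Apaf1, the core of the apoptosome, had a value of 0.0051 ± 0.056 with SFN (adjusted p = 0.97) and rose by 0.21 ± 0.056 with DAC+SFN (adjusted p = 0.00958), a call lost without control replicate 2 or DAC+SFN replicate 1 (adjusted p up to 0.0688). Bbc3, the BH3-only protein Puma, was at 6.49, 7.96 and 12.5 CPM in control, 5.79, 11.3 and 7.36 under SFN and 9.29, 15.9 and 8.36 under DAC+SFN. Its replicates went opposite ways, replicate 2 up and replicate 3 down, and its log2 intervals were -0.65 to 0.36 with SFN and -0.18 to 0.81 with DAC+SFN. Triap1, a mitochondrial survival factor, and Rps27l did not pass in either comparison (DAC+SFN values of 0.22 ± 0.10 and 0.058 ± 0.053, adjusted p = 0.111 and 0.437). Reads that map to both Rps27l and its paralog Rps27 were discarded by the authors, so the Rps27l level is uncertain.

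Genes that restrain growth and the cell cycle had the largest median change of the 5 role groups with SFN and with DAC+SFN. Of 8 tested, 5 rose with SFN and 7 with DAC+SFN, against 8.27% and 17% of all genes, with median log2 fold changes of 0.68 and 1.06 (0.0040 and 0.0078 over all genes). The rank, counts and medians of this group include Ptprv, which passed the filter only through treated libraries. Values of the group without Ptprv are not given here. Btg2 (chr1:134075170-134079120, minus strand), an antiproliferative adaptor of mRNA deadenylation, was at 10.5, 18 and 20.4 CPM in control, 18.6, 33.1 and 27.8 under DAC, 23.2, 37.7 and 31.6 under SFN and 46, 49.2 and 41.5 under DAC+SFN. All SFN samples were above all controls, and all DAC+SFN samples were above every other sample. Btg2 rose by 0.93 ± 0.15 with SFN (adjusted p = 0.000991) and by 1.53 ± 0.15 with DAC+SFN, a fold of 2.88 (adjusted p = 7.23e-06).

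Plk2 (chr13:110395046-110400844, plus strand), a polo-like kinase, was at 24.4, 34.2 and 27.7 CPM in control, 34.2, 56.6 and 39.1 under DAC, 39.7, 66.4 and 42.7 under SFN and 62, 81.4 and 57.9 under DAC+SFN. The lowest DAC sample was at the level of the highest control, and all SFN and DAC+SFN samples lay above the controls. It rose by 0.57 ± 0.082 with DAC (adjusted p = 0.0121), 0.77 ± 0.082 with SFN (adjusted p = 3.51e-05) and 1.22 ± 0.081 with DAC+SFN (adjusted p = 3.75e-07). The DAC call was lost without control replicate 1, control replicate 2 or DAC replicate 2 (adjusted p up to 0.19). Plk3, its relative, had a value of 0.38 ± 0.13 with SFN (adjusted p = 0.0627) and rose by 0.76 ± 0.13 with DAC+SFN (adjusted p = 0.000512).

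Ccng1 (chr11:40748552-40755311, minus strand), which brings the phosphatase PP2A to Mdm2, was at 482, 635 and 451 CPM in control, 624, 838 and 556 under DAC, 739.8, 921 and 688 under SFN and 991, 1018 and 877 under DAC+SFN. The SFN samples and the DAC+SFN samples were all above the controls. The rise was 0.59 ± 0.069 with SFN (adjusted p = 7.91e-05) and 0.90 ± 0.070 with DAC+SFN (adjusted p = 1.48e-06), and the DAC value was 0.36 ± 0.069 (adjusted p = 0.054).

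Ptprv and Epha2 had the widest errors of this group. Ptprv (chr1:135108497-135132594, minus strand), a receptor-like phosphatase gene annotated as a processed transcript, had 10 to 93 counts per library and was at 0.644, 0.430 and 0.770 CPM in control, 0.704, 2.11 and 1.35 under DAC, 2.12, 1.99 and 1.88 under SFN and 3.05, 4.45 and 2.15 under DAC+SFN. The SFN and DAC+SFN samples were above all controls. It rose by 1.71 ± 0.37 with SFN (adjusted p = 0.00702), lost without control replicate 2 (adjusted p up to 0.0684), and by 2.38 ± 0.35 with DAC+SFN (adjusted p = 0.000208). Since no control reached 1 CPM, Ptprv was tested only because of its treated libraries. Epha2, an ephrin receptor, was at 4.32, 3.57 and 11.9 CPM in control, 6.68, 11.7 and 15 under SFN and 11.7, 19.3 and 17.4 under DAC+SFN, and control replicate 3 overlapped the treated samples. It rose by 0.81 ± 0.24 with SFN (adjusted p = 0.034), lost without control replicate 1, control replicate 2, SFN replicate 1, SFN replicate 2 or SFN replicate 3 (adjusted p up to 0.193), and by 1.40 ± 0.24 with DAC+SFN (adjusted p = 0.000522).

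Gadd45a, a stress sensor of growth arrest and repair, was at 12.6, 16.5 and 17.2 CPM in control, 11.5, 25.2 and 17.3 under SFN and 17.7, 29.6 and 18.9 under DAC+SFN. It rose by 0.50 ± 0.13 with DAC+SFN (adjusted p = 0.0111), lost without control replicate 2, DAC+SFN replicate 1 or DAC+SFN replicate 2 (adjusted p up to 0.0989), and had a value of 0.19 ± 0.13 with SFN (adjusted p = 0.385). Of its exon bases, 19.5% are covered by E230016M11Rik on the other strand. The kit marks strand, and the strand setting of the counting is not given in the sources used here. Ei24, Plk3, Ptprv and Rrm2b share between 2.55% and 5.7% of their exon bases with genes on the other strand. Cd82, a tetraspanin that limits cell motility, had a DAC+SFN value of -0.24 ± 0.12 (adjusted p = 0.154).

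In DNA repair, 2 of 5 genes rose with SFN and 3 with DAC+SFN, where 8.27% and 17% of all genes did. Polk (chr13:96480690-96542579, minus strand), a polymerase that copies past lesions, was at 40.3, 40.5 and 37.3 CPM in control, 51.9, 61.3 and 46.4 under SFN and 63.9, 65.7 and 55.7 under DAC+SFN. All treated samples of these groups were above all controls, and the rises were 0.43 ± 0.069 and 0.65 ± 0.069 (adjusted p = 0.000894 and 1.35e-05). Ercc5, the XPG endonuclease of nucleotide excision repair, was at 67.3, 81.2 and 69.8 in control, 83.7, 101 and 78.9 under SFN and 116, 115 and 95.5 under DAC+SFN. It rose by 0.27 ± 0.068 with SFN (adjusted p = 0.0169), lost without control replicate 1, control replicate 2, SFN replicate 2 or SFN replicate 3 (adjusted p up to 0.12), and by 0.58 ± 0.068 with DAC+SFN (adjusted p = 3.34e-05).

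Rrm2b, the p53-induced subunit of ribonucleotide reductase, rose by 0.24 ± 0.078 with DAC+SFN (adjusted p = 0.0315), lost without control replicate 1, control replicate 2, control replicate 3, SFN replicate 2, DAC+SFN replicate 2 or DAC+SFN replicate 3 (adjusted p up to 0.147). The damage recognition genes Xpc and Ddb2 did not pass. Xpc was at 54.2, 43.9 and 44.5 CPM under DAC+SFN against 39.6, 40.6 and 42.3 in control, without overlap (0.22 ± 0.080, adjusted p = 0.0532). Ddb2 was at 6.92, 6.08 and 7.75 against 9.71, 5.85 and 8.63 (-0.21 ± 0.14, adjusted p = 0.26), and 26.7% of its exon bases are covered by Acp2 on the other strand.

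Among 5 genes of metabolism and stress, 1 rose with SFN and 4 with DAC+SFN, with 8.27% and 17% of all genes higher. Dcxr (chr11:120725399-120727281, minus strand), a reductase of sugars and carbonyls, was at 18.7, 31.9 and 21.1 CPM in control, 27, 48.7 and 32 under DAC, 38.2, 49.3 and 32.3 under SFN and 55.9, 64.5 and 38.2 under DAC+SFN. SFN and DAC+SFN samples lay above all controls, with rises of 0.75 ± 0.12 and 1.16 ± 0.12 (adjusted p = 0.00106 and 1.38e-05). Fdxr, the mitochondrial ferredoxin reductase, rose by 0.32 ± 0.10 with DAC+SFN (adjusted p = 0.0264), lost without control replicate 1, control replicate 2, DAC+SFN replicate 1 or DAC+SFN replicate 2 (adjusted p up to 0.172).

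The 3 sestrins, which restrain mTORC1, did not share a pattern. Sesn2 was at 51.3, 56.4 and 44.9 CPM in control, 62.6, 71.1 and 67 under DAC, 57.1, 59.8 and 44.5 under SFN and 78.8, 69.4 and 57.7 under DAC+SFN. The DAC samples were above all controls and the SFN samples overlapped them. Its value was 0.40 ± 0.089 with DAC (adjusted p = 0.088) and 0.077 ± 0.089 with SFN (adjusted p = 0.617), and it rose by 0.43 ± 0.088 with DAC+SFN (adjusted p = 0.00213). Sesn3 was at 34, 27.2 and 26.3 in control, 31.5, 25.8 and 25.1 under DAC, 30.9, 25.3 and 25.7 under SFN and 41.8, 31.4 and 35.1 under DAC+SFN. Its value was -0.090 ± 0.072 with DAC (adjusted p = 0.72) and -0.094 ± 0.071 with SFN (adjusted p = 0.415), and it rose by 0.31 ± 0.071 with both (adjusted p = 0.00462). Sesn1 had a DAC+SFN value of -0.24 ± 0.10 (adjusted p = 0.0885), with DAC+SFN replicate 3 above its control and the other 2 below.

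To ask what each agent added to the other, DAC+SFN was compared with each single treatment. Adding SFN to DAC raised 20 of the 36 members (55.6%) and lowered 0, where 9.55% of all genes were higher and 6.6% lower, with a median log2 fold change of 0.33 (0.00085 over all genes). Of the 35 members at 1 CPM in every library, which leave out Ptprv, 19 were called and 0 passed a fold of 2. The median over these 35 was 0.29. The count of 20 fell to 12 without DAC+SFN replicate 1 (6.62% of all genes called) and to 13 without DAC replicate 1 (7.71%). It was 0 without the replicate block, where 0.172% of all genes were called. Mdm2 rose by 0.68 ± 0.070 (adjusted p = 4.47e-05), Btg2 by 0.83 ± 0.14 (adjusted p = 0.00176), Plk2 by 0.65 ± 0.079 (adjusted p = 0.00014) and Ptprv by 1.25 ± 0.31 (adjusted p = 0.014). In 11 members all DAC+SFN samples lay above all DAC samples, against 9.19% of all genes, and in 0 below (8.98%). Only Ptprv passed a fold of 2, as 0.73% of all genes did, and its call was lost without DAC replicate 1, DAC+SFN replicate 1 or DAC+SFN replicate 2 (adjusted p up to 0.0954).

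Adding DAC to SFN raised 8 of the 36 members (22.2%), namely Hipk2, Trp53inp1, Tnfrsf10b, Ccng1, Btg2, Plk2, Ercc5 and Sesn3, and lowered 0, where 0.937% of all genes were higher and 0.67% lower. The median log2 fold change was 0.24 (0.0048 over all genes). Trp53inp1 rose by 0.54 ± 0.059 (adjusted p = 0.00235), Btg2 by 0.60 ± 0.14 (adjusted p = 0.0491) and Sesn3 by 0.40 ± 0.070 (adjusted p = 0.0243). The Trp53inp1 call was lost without SFN replicate 3 (adjusted p up to 0.0723), the Sesn3 call without SFN replicate 1, SFN replicate 3 or DAC+SFN replicate 1 (adjusted p up to 0.23), and the Btg2 call in 9 of the 12 fits that left out 1 library. Mdm2 had a value of 0.25 ± 0.069 that did not pass (adjusted p = 0.0728). In 8 members all DAC+SFN samples lay above all SFN samples, which 5.23% of all genes did, and in 0 below (6.86%). A fold above 2 was passed by 0 members (0.112% of all genes). The count rests on single libraries, and the share of all genes called in either direction (1.61% in the main fit) moved too. The count was 0 without SFN replicate 3 (0% of all genes) and 1 without SFN replicate 1 or DAC+SFN replicate 1 (0.0172% each). It was 4 without control replicate 1 (0.654%) or SFN replicate 2 (1.39%) and 5 without DAC replicate 2 (0.903%). It was 16 without DAC+SFN replicate 3 (6.06%) and 0 without the block (0%). If the labels' SFN dose holds, these groups differed in SFN as well.

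Whether DAC changed the response to SFN was tested directly as the interaction, the SFN change in the presence of DAC minus that in its absence. By edgeR's test 0 members and 0 genes passed an adjusted p of 0.05 (0% of all genes), and by the DESeq2 Wald test 0 members did. An unadjusted p under 0.05 was found for 4 members and for 5.87% of all genes. The intervals of 32 members held 0, with a median half-width of 0.243 on the log2 scale and a range of 0.157 to 1.06. These intervals are not adjusted for the number of genes. For Mdm2 the interval was -0.31 to 0.11, for Trp53inp1 -0.17 to 0.19, for Btg2 -0.54 to 0.35 and for Plk2 -0.36 to 0.12.

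The intervals of 4 members left out 0, those of Sesn3 (0.27 to 0.70), Hipk2 (0.38 to 1.04), Apaf1 (0.013 to 0.35) and Rps27l (-0.35 to -0.024). Their adjusted p-values lay between 0.748 and 0.85.

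**Figure D5:**
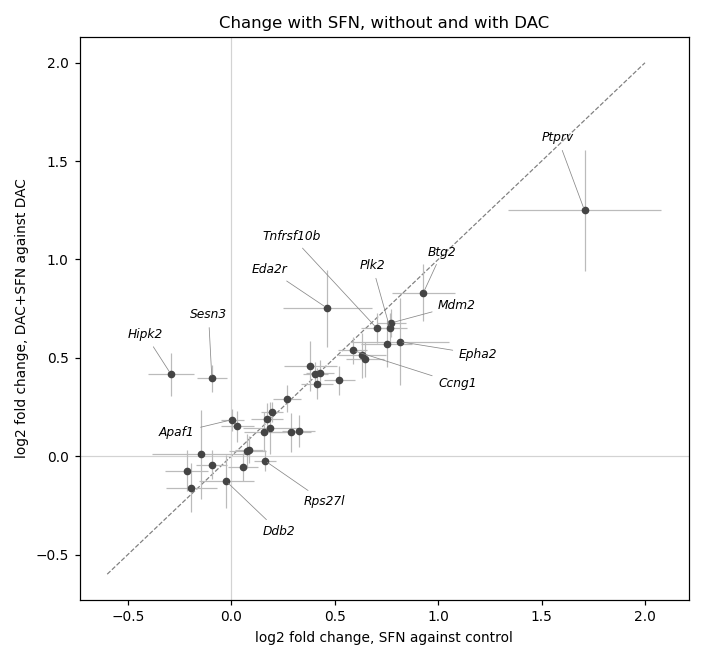
Log2 fold change with SFN in the absence of DAC (SFN against control, x axis) and in its presence (DAC+SFN against DAC, y axis) for the 36 tested members, with SE bars; the dashed line marks equal changes. Most members lie near the line, Hipk2 and Sesn3 above it, and 0 differ from it at an adjusted p of 0.05.

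The members also differed between replicates. Of 36 tested, 27 (75%) differed by replicate number at an adjusted p under 0.05, where 33.9% of all genes did. Among these, 18 were highest in replicate 2. In 12 members, Trp53, Mdm2, Bax, Tnfrsf10b, Ccng1 and Plk2 among them, replicate 2 was the highest sample in each of the 4 groups. Of the 17 members that rose with SFN, 14 were highest in replicate 2, and of the 26 that rose with DAC+SFN, 20 were. The share of all genes highest in replicate 2 is not given here, so whether this is particular to the members was not tested. Within each replicate number the median difference of the 36 members from control was 0.339, 0.331 and 0.19 log2 CPM with SFN (replicates 1, 2 and 3) and 0.604, 0.532 and 0.37 with DAC+SFN. The differences were thus above 0 in each replicate, with 26, 30 and 26 members higher with SFN and 32, 32 and 30 higher with DAC+SFN. The part of culture, day or library in the replicate differences was not tested.

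A separate list of 20 other p53 targets, of which 19 were tested, had 9 genes higher and 0 lower with SFN, 1 higher with DAC and 13 higher and 0 lower with DAC+SFN. Of all genes 8.27%, 0.18% and 17% were higher in these comparisons. Without the replicate block the list's counts were 0, 0 and 6, with 0.198%, 0% and 10.3% of all genes called. Cdkn1a (chr17:29090976-29100727, plus strand), whose product p21 inhibits cyclin-dependent kinases, was at 239.9, 372 and 291 CPM in control, 357, 582 and 432 under DAC, 535, 792 and 454 under SFN and 784, 964 and 579 under DAC+SFN. The SFN and DAC+SFN samples lay above all controls. It rose by 0.60 ± 0.11 with DAC (adjusted p = 0.0441), 0.96 ± 0.11 with SFN (adjusted p = 6.27e-05) and 1.36 ± 0.11 with DAC+SFN (adjusted p = 1.91e-06). The DAC call was lost without control replicate 1, control replicate 2, DAC replicate 2, DAC replicate 3, SFN replicate 1 or DAC+SFN replicate 2 (adjusted p up to 0.292). With DAC+SFN the adenylate kinase gene Ak1 rose by 1.38 ± 0.087 and the stem cell factor gene Kitl by 1.12 ± 0.18.

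Genes that p53 is known to lower through p21 and the DREAM repressor complex, 20 regulators of mitosis and DNA replication, were mostly lower with DAC+SFN. With DAC+SFN 18 of 20 fell and 0 rose (14.7% of all genes were lower), with a median log2 fold change of -0.32. Without the block 10 were called, with 10.3% of all genes. Cdc25c, a phosphatase that starts mitosis, fell by 0.62 and the survivin gene Birc5 by 0.50 on the log2 scale. With SFN 1 fell (Ccna2, -0.25 ± 0.069, adjusted p = 0.0261) and with DAC 0 did, where 5.65% and 0% of all genes were lower. In each of these comparisons 8 had an unadjusted p under 0.05 by edgeR, against 28.8% of all genes with SFN and 10.1% with DAC. The medians were -0.099 with SFN and -0.13 with DAC. Against DAC 7 and against SFN 5 of the 20 were lower with DAC+SFN, where 6.6% and 0.67% of all genes were lower.

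Enzymes and partners that modify p53, 19 tested of 22, had 1 higher (Rchy1) and 1 lower (Kat5) with SFN, 0 called with DAC, and 3 higher and 1 lower (Chek1, -0.40 ± 0.092) with DAC+SFN. That was 10.5% of the list with SFN and 21.1% with DAC+SFN, where 13.9% and 31.6% of all genes were called. Targets of the stress factor ATF4, which shares some targets with p53, were tested beside them. Of 13 tested, 9 fell and 1 rose with SFN, 0 passed with DAC, and 9 fell and 2 rose with DAC+SFN. Of all genes 5.65% were lower and 8.27% higher with SFN, and 14.7% lower and 17% higher with DAC+SFN. With SFN the pseudokinase gene Trib3 fell by 1.03 and Chac1, which breaks down glutathione, by 1.00, whereas the cystine transporter gene Slc7a11 rose by 1.06 ± 0.16. Without the block 3 of the 13 were called with SFN and 10 with DAC+SFN, with 0.198% and 10.3% of all genes called.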

How the data were processed

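RNA from 12 B16F10 samples was sequenced as stranded mRNA libraries of single-end reads. Per the submitters' processing notes and the study's methods, the authors checked reads with FastQC 0.11.7, trimmed them with Trimmomatic 0.38, aligned them to mm10 with TopHat2 2.1.1 and counted them per gene with HTSeq, keeping reads aligned to 1 place. The deposited values are raw read counts per gene symbol, neither filtered nor normalized. Multimapped reads are missing, which lowers genes with near copies.

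Groups and replicate numbers came from the labels. The filter kept 11638 of 24421 genes, those reaching 1 CPM in 3 or more of the 12 libraries. Counts were scaled by TMM and tested in edgeR 4.0.16 (R 4.3.3) with glmQLFit and glmQLFTest in 1 model over all samples, with the replicate number as a block. p-values were adjusted by Benjamini and Hochberg over all genes. Fold changes used a prior count of 0.125, and differences of log2 CPM a prior count of 2. SEs are those implied by the F statistic. A call is an adjusted p under 0.05. The replicate numbers pair the samples. Deviations from group means correlated with r = 0.544 on average (0.27 to 0.732) over the 18 pairs of samples with the same number in different groups, and with -0.267 over the 36 pairs with different numbers. The chi-square per gene between replicates of a group ran from 10.8 to 28.9, so none were copies. Library totals of 15880957 to 27291436 put 1 CPM at 15.9 to 27.3 counts. The floor of 3 counts covers counting error only, whereas the 95% intervals of fold changes include the spread between samples.

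Alternatives were DESeq2 1.42.0 (size factors, Wald test), other filters, no block, the newer edgeR fit, only the groups compared, another prior count and each sample left out. Leaving out each replicate number in every group was added after seeing the data. The scripts were tested on simulated data. The members and gene lists (other p53 targets, p53 modifiers, DREAM, ATF4, melanocyte and other cell markers) were chosen with earlier results of these data known. All members may be named, and from each other list Cdkn1a and at most 5 called genes with the largest change per comparison. 1 gene of the other lists is not reported here.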

Additional observations from a re-analysis of the deposited data

How the results depend on the processing

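Without the replicate block, which removes the pairing, the counts of changed members were 0 for SFN, 0 for DAC, 17 for DAC+SFN against control, 0 against DAC and 0 against SFN, in place of 17, 2, 26, 20 and 8, and the counts past a fold of 2 were 0 for SFN and 0 for DAC+SFN against DAC in place of 1 and 1. Other settings moved the smaller counts, and the share of all genes called moved with them. For DAC (0.18% of all genes in the main fit), 11 members were called with the DESeq2 Wald test (0.713%). With no filter on low counts 13 were called (0.971%) and with only the groups compared 18 (5.82%). For DAC+SFN against SFN (1.61% in the main fit), 13 were called with no filter (2.79%) and 24 with only the groups compared (11.1%). Leaving out 1 library gave 12 to 19 for SFN, 0 to 13 for DAC, 20 to 27 for DAC+SFN against control, 12 to 22 against DAC and 0 to 16 against SFN, with 9, 0, 19, 6 and 0 as the lowest counts without 1 replicate number in every group. In the same order, the shares of all genes called without 1 library were 6.25% to 18.2%, 0% to 0.871%, 20.1% to 36.2%, 6.62% to 20.5% and 0% to 6.06%. Without 1 replicate number the lowest shares were 3.72%, 0%, 12.7%, 2.12% and 0%. Past a fold of 2, leaving out gave 0 to 3 for SFN, 5 to 9 for DAC+SFN and 0 to 1 against DAC. The interaction stayed at 0 under every alternative run, and the count of members differing by replicate number was 25 by DESeq2 and 26 with at least 10 counts in every sample, in place of 27. The cause of these shifts was not tested. Fewer samples were fitted only where libraries were left out or only the groups compared were used.

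No call reversed its sign under the alternatives run. Values near 0 that did not pass changed sign. For Apaf1 with SFN, the value was -0.00053 with DESeq2 size factors, -0.00028 with the DESeq2 Wald test, -0.0031 with no filter and -0.00053 with at least 10 counts in every sample, and -0.035 to 0.051 without 1 library (-0.058 without replicate 2 of every group). SFN values also turned without 1 library for Mdm4 (-0.012 to 0.12), Bbc3 (-0.43 to 0.13), Ddb2 (-0.15 to 0.11) and Xpc (-0.050 to 0.095), as did DAC+SFN values for Ppm1d (-0.042 to 0.022) and interaction values for Btg2 (-0.36 to 0.041). Without 1 replicate number in every group, SFN values turned for Mdm4 (-0.010), Bbc3 (0.20), Gadd45a (-0.057), Ddb2 (0.14) and Xpc (-0.024), DAC+SFN values for Ppm1d (0.0011) and Bbc3 (-0.042), and interaction values for Mdm2 (0.010), Btg2 (0.10) and Plk2 (0.048). Ptprv and Eda2r, with under 100 counts per library, have the widest counting error.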
